A study of Saccharomyces cerevisiae with 4 samples.

Results

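Chromosome XI of Saccharomyces cerevisiae was examined for the places where chromatin pulled down with tagged mRNA decay factors was sequenced. The regions were a window of 300 bp before each of the start codons of its 318 protein-coding genes, taken here as promoters, together with its 16 tRNA genes and 5 snoRNA genes. These 339 regions are part of 6353 such regions of the nuclear genome, of which 6002 are promoters, 275 tRNA genes and 76 snoRNA genes. They were chosen by chromosome alone and by no measured value, but the offset used to place the genes was read from these same positions, as described below.

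The libraries were made by ChIP-exo, a chromatin pull-down in which exonucleases trim the crosslinked DNA back to the protein, so that tag ends lie close to the crosslinked site. The strains carried a TAP tag on Xrn1, on Dcp2 or on Lsm1, and the control strain carried no TAP tag. All of them had the yMC458 background, grew in YPD (rich glucose medium) and were fixed with 1% formaldehyde. All went through the same pull-down on IgG beads, which bind the protein A part of the tag. Each strain gave 1 library, so differences between strains have no replicate check, and every interval given is a 95% interval for counting error only. Tags at one position can be PCR copies of one fragment, so positions, with each index and strand counted once, were the main unit.

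Xrn1 is the main cytoplasmic exonuclease that degrades mRNA from its 5′ end, Dcp2 cleaves the cap as the catalytic part of the decapping enzyme, and Lsm1 belongs to the ring of Lsm proteins that binds the 3′ ends of shortened mRNAs and promotes decapping. All of them are known mainly for their work in the cytoplasm, and the series addresses their presence on chromatin. The promoter of a yeast gene lies mostly in a nucleosome-depleted stretch just upstream of the transcription start. A tRNA gene is transcribed by RNA polymerase III and carries its promoter inside the gene, while most snoRNA genes are transcribed by RNA polymerase II from a promoter upstream or lie inside an intron of a host gene.

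The Xrn1-TAP library had 158105 tags at 18481 positions, Dcp2-TAP 357674 tags at 44955 positions, Lsm1-TAP 211236 tags at 25342 positions and no-TAP 33412 tags at 4743 positions. Chromosome XI held 795 of these positions for Xrn1-TAP, 1885 for Dcp2-TAP and 1038 for Lsm1-TAP, against 201 for no-TAP, which is 4.30%, 4.19%, 4.10% and 4.24% of each library in the same order. Its density of positions was 0.836 times that of the other chromosomes for Xrn1-TAP (0.778 to 0.898), 0.807 times for Dcp2-TAP (0.770 to 0.845), 0.805 times for Lsm1-TAP (0.756 to 0.857) and 0.822 times for no-TAP (0.710 to 0.947). The lower density was thus seen with and without a tag, and among the 16 chromosomes XI ranked 3 from the lowest in Xrn1-TAP, Dcp2-TAP and no-TAP and 1 for Lsm1-TAP. Its positions carried many tags on average, 9.89 for Xrn1-TAP, 9.27 for Dcp2-TAP and 10.1 for Lsm1-TAP, the highest of the 16 chromosomes in each, and 7.60 for no-TAP, with 1 chromosome higher.

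The gene table of the R64 assembly fitted the files on chromosome XI only in pieces. Left of a break between the start codons of SHE2 and PMU1, the 4 libraries together had 177 positions in the 150 bp upstream of 87 start codons with no offset, against 91 with an offset of 360 bp. Right of the break the order was the opposite, with 490 positions upstream of 231 start codons at 360 bp and 163 at no offset, and the best offset in steps of 10 bp was 340 bp. The tRNA genes gave the same picture: the 5 on the left held 24 positions at no offset and 3 at 360 bp, and the 11 on the right held 64 at 360 bp and 3 at no offset. Genes right of the break were therefore moved by 360 bp and those on the left were not. The break, and the choice between no offset and 360 bp on either side of it, were set by positions upstream of genes. The general excess over promoters below is therefore not independent of this placement. The start codons and the tRNA genes are separate anchors that were placed by the same offsets.

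**Figure D1:**
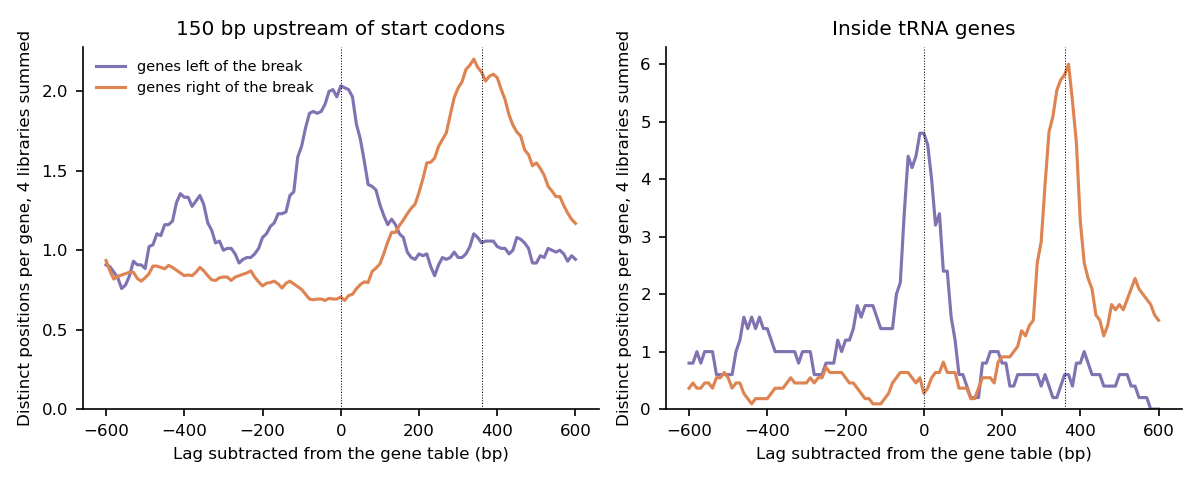
Distinct positions per gene, summed over the 4 libraries, in the 150 bp upstream of start codons (left) and inside tRNA genes (right) of chromosome XI, against the lag in bp subtracted from the gene table. Genes left of the break peak at a lag of 0 and genes right of it near 360 bp (dotted lines) for both anchors.

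Promoters of chromosome XI held more positions than an even spread in every library, the untagged control included. The windows cover 13.1% of the chromosome and held 216 positions for Xrn1-TAP, 567 for Dcp2-TAP and 271 for Lsm1-TAP, against 54 for no-TAP. Relative to the mean density of the chromosome this was a fold of 2.07 for Xrn1-TAP (1.81 to 2.37), 2.30 for Dcp2-TAP (2.11 to 2.49), 1.99 for Lsm1-TAP (1.76 to 2.25) and 2.05 for no-TAP (1.54 to 2.68). Set against no-TAP, the share of positions lying upstream was 1.01 times as high for Xrn1-TAP (0.747 to 1.39), 1.12 times for Dcp2-TAP (0.846 to 1.51) and 0.972 times for Lsm1-TAP (0.723 to 1.33), and each of these intervals includes 1.

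Compared with the other 15 chromosomes, the fold of chromosome XI was 1.06 times as high in Xrn1-TAP (0.920 to 1.22), 1.11 times for Dcp2-TAP (1.02 to 1.21), 1.11 times for Lsm1-TAP (0.977 to 1.25) and 1.00 times for no-TAP (0.749 to 1.32). The Dcp2-TAP interval excludes 1 when positions are counted, but counted in tags its ratio was 0.974 (0.946 to 1.00). The difference in Dcp2-TAP therefore depends on the unit. These folds are relative to the density of the same chromosomes, which was lower on XI. In counts, its windows held fewer positions on average than those elsewhere. The means were 0.758 against 0.865 for Xrn1-TAP, 1.98 against 2.25 for Dcp2-TAP, 0.940 against 1.07 for Lsm1-TAP and 0.195 against 0.229 for no-TAP.

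Around start codons the positions were densest in the TAP libraries about 100 bp upstream, and coding regions were sparse. The density 41 to 140 bp upstream was 4.25 times that more than 100 bp into the gene in Xrn1-TAP (3.33 to 5.37), 4.91 times for Dcp2-TAP (4.23 to 5.68), 3.64 times for Lsm1-TAP (2.94 to 4.48) and 2.87 times for no-TAP (1.63 to 4.81). On the other chromosomes the same ratios were 3.41, 3.97, 2.74 and 3.48. The fullest 20 bp bin began 120 bp upstream in Xrn1-TAP with 25 positions, 100 bp upstream in Dcp2-TAP with 67 and 100 bp upstream in Lsm1-TAP with 30. In no-TAP it began 280 bp upstream, with 8 positions, a number too small to place a maximum.

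**Figure D2:**
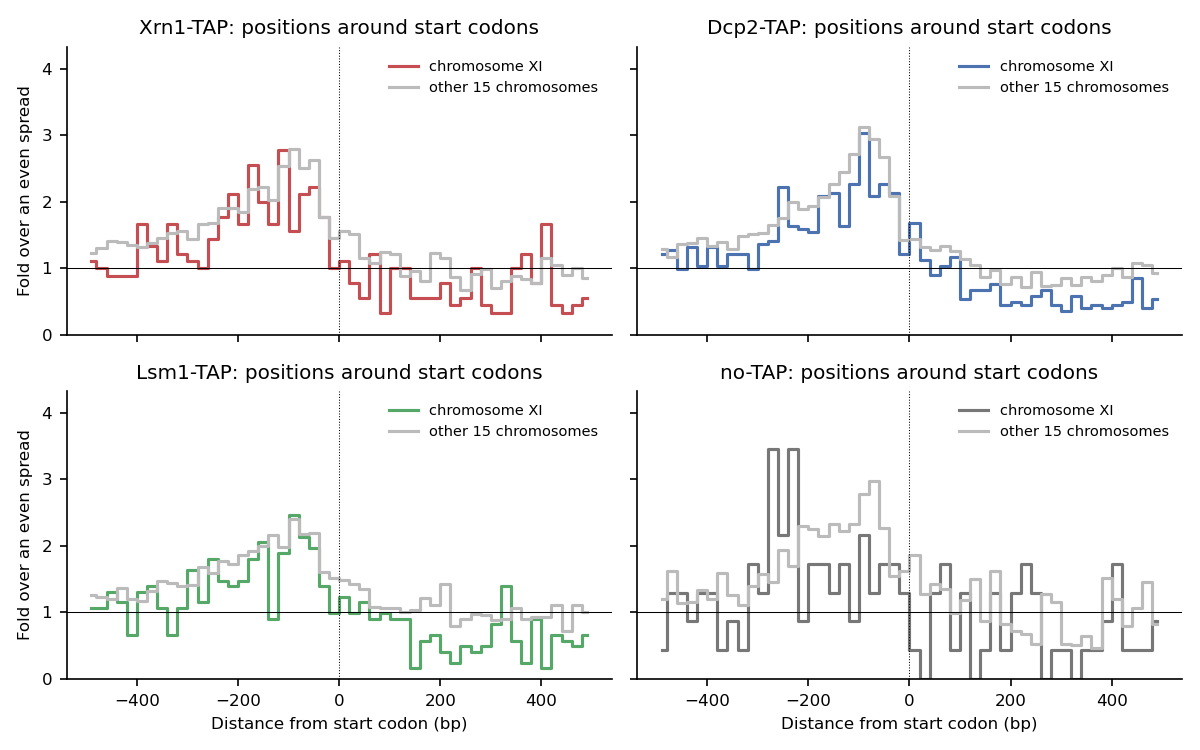
Density of distinct positions in 20 bp bins around start codons, as a fold over an even spread of each library's positions on the nuclear genome, for chromosome XI (coloured or dark grey) and the other 15 chromosomes (light grey); the dotted line is the start codon. The maxima of the TAP libraries on chromosome XI lie 100 to 120 bp upstream, and the no-TAP curve rests on at most 8 positions per bin.

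Coding regions of chromosome XI, from 100 bp past the start codon on, held 0.688 positions per kb in Xrn1-TAP, 1.60 for Dcp2-TAP and 0.985 for Lsm1-TAP, against 0.197 for no-TAP. An even spread over the nuclear genome would give 1.41, 3.47, 1.91 and 0.363 per kb. The coding region with most positions per kb summed over the TAP libraries was that of GPM1, which encodes the glycolytic enzyme phosphoglycerate mutase, with 8 positions for Xrn1-TAP, 6 for Dcp2-TAP and 4 for Lsm1-TAP, against 0 for no-TAP over 643 bp. UGP1, whose product makes UDP-glucose for cell wall and storage sugars, had 4 for Xrn1-TAP, 7 for Dcp2-TAP and 12 for Lsm1-TAP, against 1 for no-TAP over 1399 bp.

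Few single promoters of the chromosome stood above an even spread of their library. A promoter was called where a 1-sided Poisson test placed its positions above the mean density of that library on the nuclear genome, leaving out the ribosomal DNA. The p-values were adjusted after Benjamini and Hochberg across all 6002 coding genes, with 0.05 as the limit. This test sets each library against itself and compares no strains. Called were 8 of 318 promoters in Xrn1-TAP (2.52%, against 4.47% of all coding genes), 25 for Dcp2-TAP (7.86%, against 10.8%), 10 for Lsm1-TAP (3.14%, against 5.86%) and 1 for no-TAP (0.314%, against 0.75%). The share was below that of the other chromosomes beyond counting error in Lsm1-TAP, at 0.523 times (0.248 to 0.973), while the intervals in Xrn1-TAP (0.550, 0.235 to 1.10), Dcp2-TAP (0.714, 0.458 to 1.06) and no-TAP (0.406, 0.0101 to 2.38) include 1. This depends on the unit: called by their tags, 31.1% of the promoters of chromosome XI stood against 28.5% elsewhere in Lsm1-TAP, a ratio of 1.09 (0.882 to 1.34).

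The depth sets what could be called. An even spread puts 0.424 positions in a window in Xrn1-TAP, 1.04 for Dcp2-TAP and 0.574 for Lsm1-TAP, against 0.109 for no-TAP, and the smallest count called was 4, 5, 4 and 3 positions in the same order. No position fell in 172 of the 318 windows for Xrn1-TAP, 76 for Dcp2-TAP and 145 for Lsm1-TAP, against 264 for no-TAP. Counted in tags, 97 promoters passed in Xrn1-TAP (28.6% of all coding genes passed), 118 for Dcp2-TAP (38.6%), 99 for Lsm1-TAP (28.7%), against 33 for no-TAP (11.2%); tags at one position are not independent, so these larger counts include windows with a single position.

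Promoters called in all 3 TAP libraries were those of FBA1, GPM1, NUP120, CWP2 and the neighbouring open reading frame YKL097C, 5 of 318 against 2.37% of all coding genes. FBA1 encodes fructose bisphosphate aldolase of glycolysis and had 6 positions for Xrn1-TAP, 20 for Dcp2-TAP and 6 for Lsm1-TAP, against 1 for no-TAP. GPM1 had 6 positions for Xrn1-TAP, 14 for Dcp2-TAP and 6 for Lsm1-TAP, against 1 for no-TAP. Both glycolytic promoters thus had positions in every library, with the median Dcp2-TAP position 89 bp upstream of the FBA1 start codon and 107 bp upstream of that of GPM1.

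CWP2, which encodes an abundant mannoprotein of the cell wall, had the fullest promoter of the chromosome in Dcp2-TAP, with 5 positions for Xrn1-TAP, 25 for Dcp2-TAP and 7 for Lsm1-TAP, against 2 for no-TAP. The window of YKL097C, on the opposite strand, held 5 for Xrn1-TAP, 22 for Dcp2-TAP and 8 for Lsm1-TAP, against 2 for no-TAP, and it overlaps that of CWP2, so the pair is 1 signal counted under 2 names. A further open reading frame, YKL096C-B, begins 30 bp upstream of CWP2 and lies inside the window. The 30 bp between them held 0 positions for Xrn1-TAP, 2 for Dcp2-TAP and 0 for Lsm1-TAP, against 0 for no-TAP, so that windows ended at the neighbouring gene lose the CWP2 call in Xrn1-TAP and Lsm1-TAP, and the YKL097C call in Dcp2-TAP and Lsm1-TAP. NUP120, a scaffold subunit of the nuclear pore, had 5 positions for Xrn1-TAP, 7 for Dcp2-TAP and 8 for Lsm1-TAP, against 1 for no-TAP, so here the Lsm1-TAP count was not below that of the deeper Dcp2-TAP library.

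TFA2, which encodes the small subunit of the general transcription factor TFIIE, was the one promoter called in no-TAP, with 3 positions for Xrn1-TAP, 15 for Dcp2-TAP and 5 for Lsm1-TAP, against 3 for no-TAP. The snoRNA gene SNR42 begins at the outer edge of this window on the opposite strand, so the positions may belong to either promoter. Only Dcp2-TAP called TMA19, the yeast homologue of translationally controlled tumour protein, which had 3 positions for Xrn1-TAP, 13 for Dcp2-TAP and 3 for Lsm1-TAP, against 0 for no-TAP. UTH1, a protein of the cell wall and mitochondria, was called in Xrn1-TAP and Dcp2-TAP with 4 positions for Xrn1-TAP, 9 for Dcp2-TAP and 2 for Lsm1-TAP, against 1 for no-TAP. UGP1, called in the same pair of libraries, had 4 for Xrn1-TAP, 6 for Dcp2-TAP and 2 for Lsm1-TAP, against 1 for no-TAP. In windows of 150 bp, TFA2 and UTH1 lost every call, and UGP1 that in Dcp2-TAP.

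Calls in Xrn1-TAP alone or Lsm1-TAP alone rested on 4 or 5 positions. VMA5, which encodes a subunit of the vacuolar proton pump, was called in Xrn1-TAP alone, with 4 positions there, 2 for Dcp2-TAP and 2 for Lsm1-TAP, against 0 for no-TAP. In Lsm1-TAP alone the test called YKL063C, with 2 positions for Xrn1-TAP, 0 for Dcp2-TAP and 5 for Lsm1-TAP, against 0 for no-TAP, and MSA2, an activator of G1 genes, with 2 for Xrn1-TAP, 4 for Dcp2-TAP and 4 for Lsm1-TAP, against 0 for no-TAP. RPL14A and PIR1, called in Lsm1-TAP too, had 0 and 1 positions for Xrn1-TAP, 4 and 4 for Dcp2-TAP, 5 and 4 for Lsm1-TAP, and 1 and 0 for no-TAP. In windows of 150 bp YKL063C and MSA2 lost their calls. The difference between libraries was not tested at these genes, since each strain had 1 library.

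**Figure D3:**
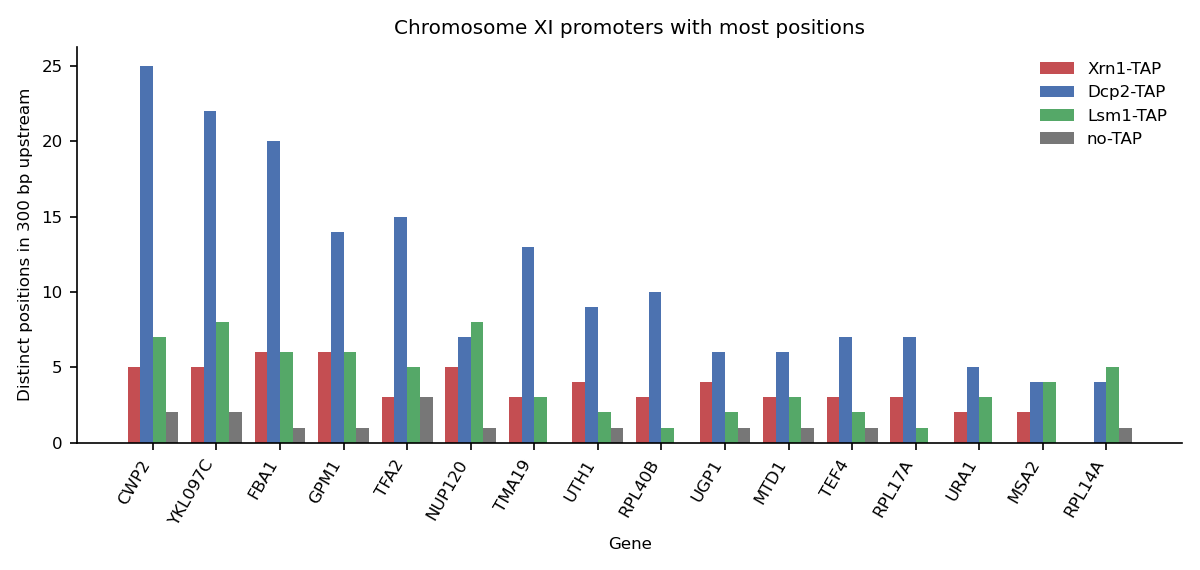
Distinct positions in the window of 300 bp before the start codon for the 16 named promoters of chromosome XI with most positions over the TAP libraries; bars stand for single libraries and carry no error. Dcp2-TAP, the deepest library, has the tallest bar at 13 of these promoters, and the bars of YKL097C and CWP2 count largely the same positions.

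Genes were also grouped by function. Beside each group, the fold is the mean number of positions per promoter in the list over the mean of all 6002 coding genes; it is a description of lists assembled with earlier results known. The 5 ribosomal protein genes held 7 positions for Xrn1-TAP (fold 1.63, 0.655 to 3.36), 31 for Dcp2-TAP (2.77, 1.88 to 3.93), 11 for Lsm1-TAP (2.06, 1.03 to 3.69) and 3 for no-TAP (2.65, 0.546 to 7.73). Of them, 4 of 5 were called in Dcp2-TAP (10.8% of all coding genes), 1 in Lsm1-TAP (5.86%) and none in Xrn1-TAP (4.47%) or no-TAP (0.75%). The members differed: RPL40B, a ubiquitin fusion with a large-subunit protein, had 3 positions for Xrn1-TAP, 10 for Dcp2-TAP and 1 for Lsm1-TAP, against 0 for no-TAP, and RPL17A had 3, 7, 1 and 0 in that order, whereas RPL14A and RPS27A had 0 for Xrn1-TAP.

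The glycolysis and gluconeogenesis list of 4 genes was carried by FBA1 and GPM1 alone. It held 12 positions for Xrn1-TAP (3.49, 1.80 to 6.10), 34 for Dcp2-TAP (3.79, 2.63 to 5.30), 12 for Lsm1-TAP (2.81, 1.45 to 4.92) and 2 for no-TAP (2.21, 0.267 to 7.97), and 2 of the 4 genes were called in each TAP library and 0 for no-TAP; among all coding genes the called share was 4.47%, 10.8%, 5.86% and 0.75% in that order of libraries. PGM1, a phosphoglucomutase, and PCK1, the gluconeogenic phosphoenolpyruvate carboxykinase that glucose represses, had 0 positions in all 4 libraries. The 3 genes listed as low in glucose, PCK1, the lactate transporter gene JEN1 and the peroxisomal beta-oxidation gene FOX2, held 0 positions for Xrn1-TAP, 1 for Dcp2-TAP and 0 for Lsm1-TAP, against 0 for no-TAP together. The upper bound of their fold was 1.43 for Xrn1-TAP, 0.829 for Dcp2-TAP and 1.15 for Lsm1-TAP, against 5.42 for no-TAP.

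The 5 translation factor genes held 8 positions for Xrn1-TAP (1.86, 0.804 to 3.67), 29 for Dcp2-TAP (2.59, 1.73 to 3.72), 9 for Lsm1-TAP (1.69, 0.772 to 3.21) and 2 for no-TAP (1.76, 0.214 to 6.37). In Dcp2-TAP 3 of the 5 were called (10.8% of all coding genes), namely TMA19, TEF4 and TIF1. TEF4, a subunit of elongation factor eEF1B, had 3 positions for Xrn1-TAP, 7 for Dcp2-TAP and 2 for Lsm1-TAP, against 1 for no-TAP. TIF1, one of the genes for the helicase eIF4A, had 0, 6, 2 and 0 in that order. EAP1, which encodes an eIF4E-binding protein, had 0 positions in every library. TIF1 has a near-identical copy, TIF2, elsewhere in the genome, and how the authors placed tags that match more than 1 site is not given, so its upstream counts are uncertain only as far as that window is shared.

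The 9 cell wall genes held 16 positions for Xrn1-TAP (2.07, 1.18 to 3.36), 51 for Dcp2-TAP (2.53, 1.88 to 3.33), 18 for Lsm1-TAP (1.88, 1.11 to 2.97) and 6 for no-TAP (2.94, 1.08 to 6.40), with 2 of 9 called in each TAP library and 0 for no-TAP. The background of called coding genes was the same 4.47%, 10.8%, 5.86% and 0.75%. The genes called were CWP2 and UTH1 in Xrn1-TAP and Dcp2-TAP, and CWP2 and PIR1 in Lsm1-TAP. CWP2 alone gave 5 of the 16 positions for Xrn1-TAP, 25 of the 51 for Dcp2-TAP and 7 of the 18 for Lsm1-TAP, against 2 of the 6 for no-TAP. The median gene of the list had 3 positions in Dcp2-TAP. FLO10, a flocculin gene usually silent in laboratory strains, had 0 in all 4 libraries. The no-TAP fold was as high as those of the TAP libraries, within wide counting error.

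Several lists held few positions and had no called member. The 9 genes of the TCA cycle, respiration and mitochondrial carriers held 6 positions for Xrn1-TAP, 12 for Dcp2-TAP and 2 for Lsm1-TAP, against 4 for no-TAP, with 0 called in any library; the Lsm1-TAP fold of 0.208 (0.0252 to 0.753) was below 1. For 15 transcription factor genes the counts were 5 for Xrn1-TAP (0.388, 0.126 to 0.905), 18 for Dcp2-TAP (0.536, 0.317 to 0.847), 10 for Lsm1-TAP (0.625, 0.300 to 1.15) and 2 for no-TAP (0.588, 0.0712 to 2.12), with 0 called. The 10 membrane transport genes held 8 positions for Xrn1-TAP, 11 for Dcp2-TAP and 5 for Lsm1-TAP, against 1 for no-TAP, and the 10 genes of fatty acid and lipid metabolism 6, 12, 3 and 1 in that order, again with 0 called. In Dcp2-TAP both were below the mean gene, at 0.491 (0.245 to 0.879) and 0.536 (0.277 to 0.936).

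The 10 ribosome biogenesis genes held 12 positions for Xrn1-TAP, 19 for Dcp2-TAP and 6 for Lsm1-TAP, against 2 for no-TAP, and the 7 genes of the mitochondrial ribosome held 11, 11, 6 and 2 in that order, with 0 called in either list. For these and the lists below, the called share of all coding genes was again 4.47%, 10.8%, 5.86% and 0.75% in that order. MRPL38 and MRPL13, which encode proteins of its large subunit, had 2 and 3 positions for Xrn1-TAP, 3 and 3 for Dcp2-TAP, 1 and 1 for Lsm1-TAP, and 0 and 0 for no-TAP. The 6 genes of amino acid and nucleotide synthesis held 6 positions for Xrn1-TAP, 13 for Dcp2-TAP and 8 for Lsm1-TAP, against 0 for no-TAP. Of them Dcp2-TAP called 2 (10.8% of all coding genes), TRP3 of tryptophan synthesis and URA1, the dihydroorotate dehydrogenase of pyrimidine synthesis. Of the 3 nuclear pore genes, NUP120 was called in each TAP library and NUP100, with 5 positions for Dcp2-TAP and 0 in each other library, in Dcp2-TAP. The nuclear pore list held 5 positions for Xrn1-TAP (1.94, 0.630 to 4.52), 14 for Dcp2-TAP (2.08, 1.14 to 3.50), 8 for Lsm1-TAP (2.50, 1.08 to 4.93) and 1 for no-TAP (1.47, 0.0372 to 8.19); NUP120 gave all 5 of Xrn1-TAP and all 8 of Lsm1-TAP. The 5 mRNA decay and splicing genes, among them PAN3 of the Pan2-Pan3 deadenylase and PRP40 of the U1 snRNP, held 2 positions for Xrn1-TAP, 4 for Dcp2-TAP and 4 for Lsm1-TAP, against 1 for no-TAP, with 0 called.

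The densest stretch of the chromosome lay outside the promoter windows, in the gap between FAS1 and LOT5; it was noticed after the values were seen. FAS1 encodes the beta subunit of fatty acid synthase, and its 300 bp promoter window held 1 position in Xrn1-TAP and 0 in the other libraries. Between 601 and 1000 bp upstream there were 20 positions for Xrn1-TAP, 32 for Dcp2-TAP and 30 for Lsm1-TAP, against 7 for no-TAP, which is 35.4 times an even spread over the nuclear genome in Xrn1-TAP (21.6 to 54.6), 23.1 times for Dcp2-TAP (15.8 to 32.6), 39.2 times for Lsm1-TAP (26.4 to 56.0) and 48.1 times for no-TAP (19.4 to 99.2). The fullest kilobase of the chromosome in each of the 4 libraries was the one at file indices 99000 to 99999.

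The untagged control shared this maximum upstream of FAS1. Scaled to library totals, the positions between 601 and 1000 bp upstream stood at 0.733 times no-TAP in Xrn1-TAP (0.298 to 2.05), 0.482 times for Dcp2-TAP (0.209 to 1.29) and 0.802 times for Lsm1-TAP (0.345 to 2.16). By tags, with 216 for Xrn1-TAP, 467 for Dcp2-TAP and 421 for Lsm1-TAP, against 56 for no-TAP, the ratios were 0.815 (0.605 to 1.11), 0.779 (0.590 to 1.05) and 1.19 (0.898 to 1.60), and each interval includes 1.

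**Figure D4:**
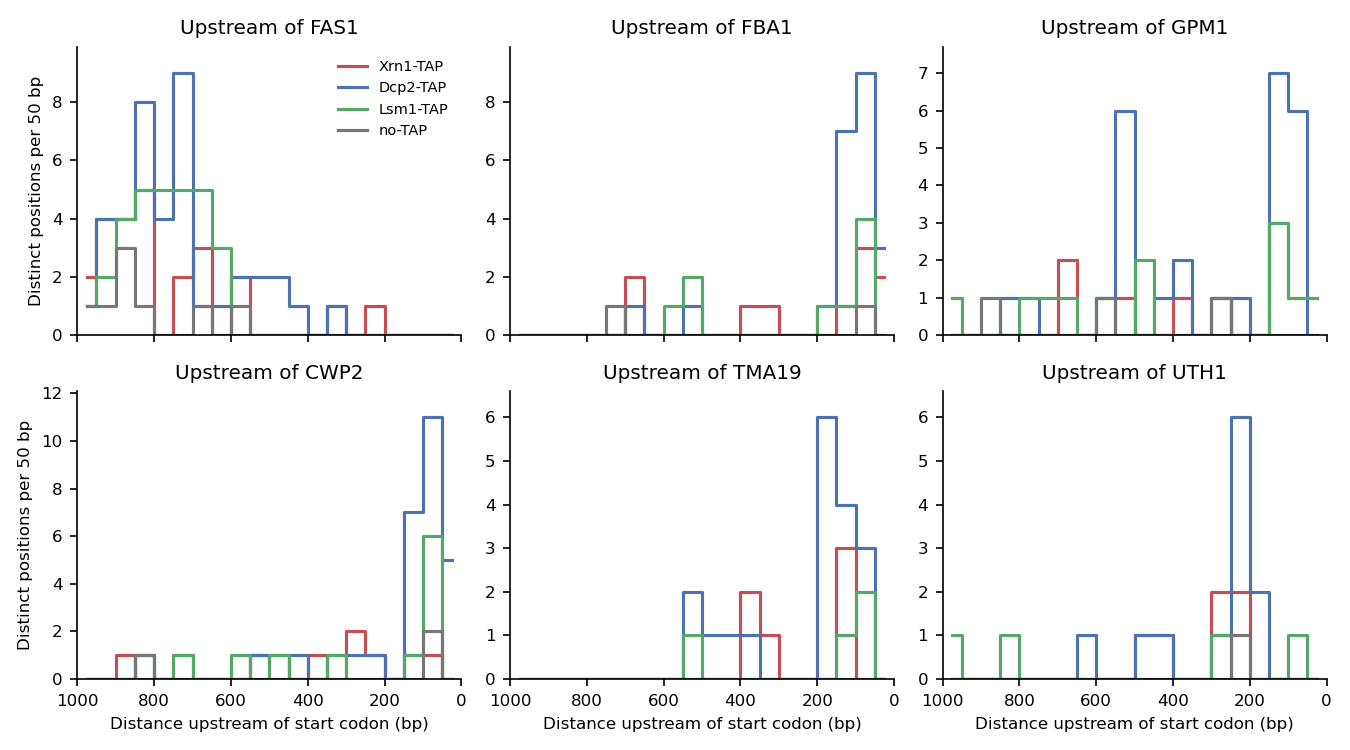
Distinct positions in 50 bp bins against the distance upstream of the start codon in bp, for FAS1, chosen after the values were seen, and for FBA1, GPM1, CWP2, TMA19 and UTH1; lines stand for single libraries and each panel has its own vertical scale. At FAS1 the positions of all 4 libraries lie mostly 600 to 1000 bp upstream, whereas at FBA1 the fullest bin of each TAP library is 50 to 100 bp upstream.

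Of the other gaps with many positions, some held an RNA gene and some did not. Only gaps upstream of a start codon were ranked, so gaps between converging genes are left out. The kilobase at file indices 163000 to 163999, which overlaps the coding region of GPM1, held 10 positions for Xrn1-TAP, 29 for Dcp2-TAP and 22 for Lsm1-TAP, against 1 for no-TAP. Its part downstream of GPM1 was not counted apart. Among the ranked gaps, the 1600 bp upstream of CWP1 were the fullest after the gap of FAS1 over the TAP libraries. This CWP1 gap contains no tRNA or snoRNA gene and held 14 positions for Xrn1-TAP, 28 for Dcp2-TAP and 13 for Lsm1-TAP, against 3 for no-TAP. The gaps upstream of FBA1, with 8, 21, 9 and 1 in that order, and of GPM1, with 7, 20, 8 and 1, contain none either. The gap of 1009 bp between the divergent genes TRP3 and UBA1, which encodes the ubiquitin-activating enzyme, contains SNR64 and held 5 positions for Xrn1-TAP, 25 for Dcp2-TAP and 7 for Lsm1-TAP, against 0 for no-TAP. The gap between RPL14A and SFT1 contains SNR87 and held 5 for Xrn1-TAP, 20 for Dcp2-TAP and 10 for Lsm1-TAP, against 2 for no-TAP. Upstream of FOX2, a gap of 1869 bp that contains the tRNA gene YNCK0016W held 7, 24, 3 and 1 in the same order, although its promoter window was nearly empty. Among the 227 genes with a gap over 300 bp, 77 had more positions beyond 300 bp than within in Xrn1-TAP, 94 for Dcp2-TAP and 86 for Lsm1-TAP, against 34 for no-TAP. The stretch beyond 300 bp differs in length between genes, and the counts were not scaled to it. Divergent neighbours that share a gap are both counted.

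Single promoters were then set against the untagged control by their tags, scaled to library totals, and a promoter was counted as above or below where the interval of the ratio excluded 1. In Xrn1-TAP 37 promoters were above and 28 below no-TAP (9.18% and 9.65% of all coding genes), in Dcp2-TAP 17 above and 27 below (6.98% and 9.35%), and in Lsm1-TAP 14 above and 27 below (7.26% and 10.3%). Of the 318 promoters this is 11.6% above and 8.81% below for Xrn1-TAP, 5.35% and 8.49% for Dcp2-TAP, and 4.40% and 8.49% for Lsm1-TAP. Set against the other chromosomes, the intervals of all these shares include 1. Farthest from 1 was the share above in Lsm1-TAP, at 0.593 times (0.321 to 1.01). Scaled by the median ratio over 491 genes with tags in all 4 libraries, which moves the log2 ratios up by 0.86 for Xrn1-TAP, 0.90 for Dcp2-TAP and 1.33 for Lsm1-TAP, the counts became 70 above and 25 below, 60 and 22, and 75 and 20, so that the share above changed to 73.7% from 56.9% for Xrn1-TAP, to 73.2% from 38.6% for Dcp2-TAP and to 78.9% from 34.1% for Lsm1-TAP. By positions no promoter of the chromosome was above no-TAP and 1 was below, in Lsm1-TAP (the background was 0% above in each library; below, it was 0.0666% for Xrn1-TAP, 0.317% for Dcp2-TAP and 0.566% for Lsm1-TAP).

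Most promoters above no-TAP had no tag in that shallow control. This held for 37 of the 37 for Xrn1-TAP, 15 of the 17 for Dcp2-TAP and 13 of the 14 for Lsm1-TAP, so their ratios are lower bounds against a floor of 3 tags per library. With the control at this floor, RPL40B stood at 2.96 times no-TAP for Dcp2-TAP with 95 tags (interval from 2.36). RPL17A stood at 2.86 times with 92 tags (from 2.28) and TMA19 at 2.58 times with 83 (from 2.06). For Xrn1-TAP, MRPL38 stood at 3.17 times with 45 tags (from 2.47) and VMA5 at 3.10 times with 44 (from 2.42). YKL102C stood at 4.02 times with 57 tags at 2 positions (from 3.16). In Lsm1-TAP YKL063C stood at 3.32 times with 63 tags (from 2.62) and MSA2 at 2.95 times with 56 (from 2.32). TOA2, the small subunit gene of TFIIA, stood at 2.48 times with 47 tags at 1 position (from 1.94).

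The glycolytic promoters were among the few with tags on both sides. FBA1 had 30 tags for Xrn1-TAP, 163 for Dcp2-TAP and 63 for Lsm1-TAP, against 6 for no-TAP, a ratio of 1.06 for Xrn1-TAP (0.433 to 3.11), 2.54 for Dcp2-TAP (1.14 to 7.02) and 1.66 for Lsm1-TAP (0.722 to 4.70). GPM1 had 31, 99, 60 and 3 tags in that order, a ratio of 2.18 for Xrn1-TAP (0.681 to 11.2), 3.08 for Dcp2-TAP (1.02 to 15.2) and 3.16 for Lsm1-TAP (1.03 to 15.8). At CWP2, with 54 tags for Xrn1-TAP, 169 for Dcp2-TAP and 57 for Lsm1-TAP, against 15 for no-TAP, the ratios of 0.761 (0.423 to 1.45), 1.05 (0.620 to 1.92) and 0.601 (0.336 to 1.14) all include 1. NUP120 stood at 0.951 times no-TAP in Xrn1-TAP (0.385 to 2.82), 0.810 times for Dcp2-TAP (0.348 to 2.31) and 0.844 times for Lsm1-TAP (0.348 to 2.47).

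Promoters below no-TAP mostly rested on 1 or 2 control positions with many tags. RPL14A had 0 tags for Xrn1-TAP, 38 for Dcp2-TAP and 30 for Lsm1-TAP, against 22 at 1 position for no-TAP. The ratio was 0.0288 for Xrn1-TAP at the floor (interval up to 0.0386), 0.161 for Dcp2-TAP (0.0930 to 0.286) and 0.216 for Lsm1-TAP (0.120 to 0.392). The 1 control position lies outside windows of 150 bp or windows placed with an offset 30 bp smaller. With the control at the floor, RPL14A then stood at 1.18 times no-TAP for Dcp2-TAP in both, with an interval from 0.916. For Lsm1-TAP it stood at 1.48 times (from 1.12) and 1.58 times (from 1.21). PUT3, the activator of proline utilisation genes, had 0, 4, 14 and 16 tags in that order, and MRS4, a mitochondrial iron carrier gene, had 31, 17, 0 and 14. With an offset 30 bp larger and the control at the floor, MRS4 stood at 2.47 times no-TAP for Xrn1-TAP (from 1.90). TFA2 and TEF4 were below no-TAP by tags although both were called in Dcp2-TAP: TFA2 stood at 0.252 for Xrn1-TAP (0.135 to 0.473), 0.534 for Dcp2-TAP (0.334 to 0.894) and 0.339 for Lsm1-TAP (0.198 to 0.599), and TEF4 at 0.528 (0.289 to 1.01), 0.251 (0.139 to 0.477) and 0.148 (0.0683 to 0.320).

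The tRNA genes of chromosome XI held many more positions than an even spread, in the control as well. With 50 bp on each side, the 16 genes held 27 positions for Xrn1-TAP, 61 for Dcp2-TAP and 31 for Lsm1-TAP, against 6 for no-TAP, a fold over the nuclear mean of 6.64 for Xrn1-TAP (4.38 to 9.67), 6.12 for Dcp2-TAP (4.68 to 7.86), 5.64 for Lsm1-TAP (3.83 to 8.00) and 5.74 for no-TAP (2.11 to 12.5). Inside the genes alone, 23 positions for Xrn1-TAP, 40 for Dcp2-TAP and 22 for Lsm1-TAP, against 3 for no-TAP gave folds of 12.8 (8.09 to 19.2), 9.06 (6.47 to 12.3), 9.02 (5.66 to 13.7) and 6.48 (1.34 to 18.9). Their fold by tags, with 50 bp on each side, was lower, at 3.12 for Xrn1-TAP, 2.88 for Dcp2-TAP and 2.74 for Lsm1-TAP, against 4.46 for no-TAP.

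Set against the 259 tRNA genes of the other chromosomes, the fold was 1.29 times as high in Xrn1-TAP (0.841 to 1.92), 1.27 times for Dcp2-TAP (0.960 to 1.65), 1.07 times for Lsm1-TAP (0.718 to 1.54) and 1.38 times for no-TAP (0.489 to 3.15), and all 4 intervals include 1. At least 1 position lay at 11 of the 16 genes in Xrn1-TAP, 14 for Dcp2-TAP and 14 for Lsm1-TAP, against 5 for no-TAP. The number per gene ran to 4 for Xrn1-TAP with a median of 2, to 11 for Dcp2-TAP with a median of 3, to 5 for Lsm1-TAP with a median of 2 and to 2 for no-TAP with a median of 0.

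YNCK0006C was the fullest tRNA gene, with 2 positions for Xrn1-TAP, 11 for Dcp2-TAP and 5 for Lsm1-TAP, against 2 for no-TAP. YNCK0016W followed with 3 for Xrn1-TAP, 8 for Dcp2-TAP and 2 for Lsm1-TAP, against 0 for no-TAP, and YNCK0010W had the highest Xrn1-TAP count, 4, with 3 for Dcp2-TAP and 3 for Lsm1-TAP, against 1 for no-TAP. The orders of the genes differed between libraries: YNCK0007W had 0 for Xrn1-TAP, 7 for Dcp2-TAP and 1 for Lsm1-TAP, against 0 for no-TAP, while YNCK0017W had 2 for Xrn1-TAP, 0 for Dcp2-TAP and 3 for Lsm1-TAP, against 0 for no-TAP. At these counts most neighbours in the order do not differ beyond counting error. TRT2, a threonine tRNA gene, was among the emptiest, with 0 for Xrn1-TAP, 1 for Dcp2-TAP and 2 for Lsm1-TAP, against 0 for no-TAP.

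**Figure D5:**
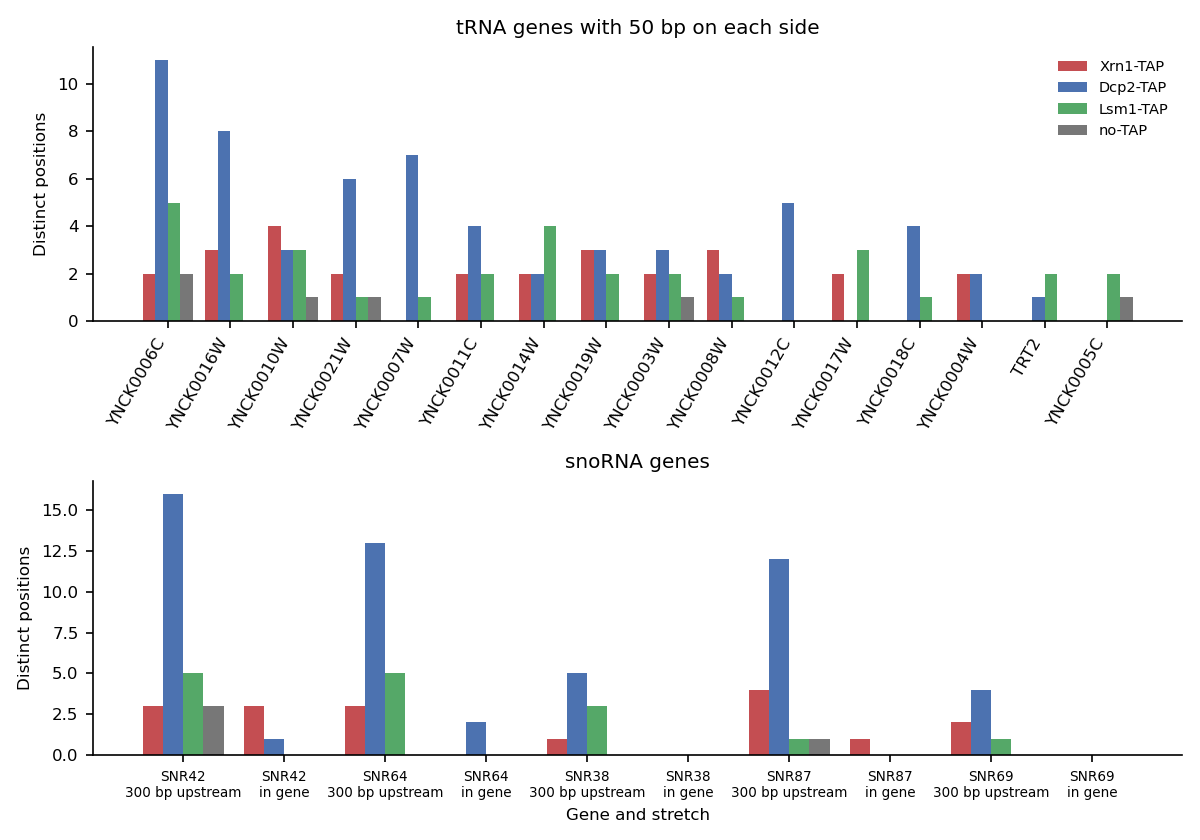
Distinct positions at each of the 16 tRNA genes of chromosome XI with 50 bp on each side (top) and at its 5 snoRNA genes, in the 300 bp upstream and inside the gene (bottom); bars stand for single libraries and carry no error. The positions at snoRNA genes lie upstream rather than inside in the Dcp2-TAP and Lsm1-TAP libraries.

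At the 5 snoRNA genes most positions lay upstream of the gene. The 300 bp upstream held 13 positions for Xrn1-TAP, 50 for Dcp2-TAP and 15 for Lsm1-TAP, against 4 for no-TAP, which over the nuclear mean is 6.13 times (3.26 to 10.5), 9.61 (7.14 to 12.7), 5.23 (2.92 to 8.62) and 7.34 (2.00 to 18.8) in that order. Inside the genes, which are 757 bp in all, there were 4 for Xrn1-TAP, 3 for Dcp2-TAP and 0 for Lsm1-TAP, against 0 for no-TAP. The fold inside was 3.74 for Xrn1-TAP (1.02 to 9.57), where SNR42 had 3 positions inside and 3 upstream, and 1.14 for Dcp2-TAP (0.236 to 3.34). Upstream of SNR42, which guides pseudouridylation of rRNA, lay 3 positions for Xrn1-TAP, 16 for Dcp2-TAP and 5 for Lsm1-TAP, against 3 for no-TAP, most of them also in the TFA2 window. The box C/D genes SNR64 and SNR87, whose products guide methylation of rRNA, had 3 and 4 upstream positions in Xrn1-TAP, 13 and 12 for Dcp2-TAP, 5 and 1 for Lsm1-TAP, and 0 and 1 for no-TAP.

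SNR38 lies inside its host gene TEF4, and the 300 bp before it, which are TEF4 sequence past the start codon, held 1 position in Xrn1-TAP, 5 for Dcp2-TAP and 3 for Lsm1-TAP, against 0 for no-TAP. SNR69 had 2, 4, 1 and 0 upstream in that order and 0 on the gene in every library. With 50 bp on each side, the 5 genes held 6 positions for Xrn1-TAP, 12 for Dcp2-TAP and 4 for Lsm1-TAP, against 1 for no-TAP. The Dcp2-TAP fold of 2.75 (1.42 to 4.81) was 0.492 times that of the 71 snoRNA genes of the other chromosomes (0.252 to 0.869); the ratio was 0.675 for Xrn1-TAP (0.244 to 1.51), 0.385 for Lsm1-TAP (0.104 to 1.00) and 0.429 for no-TAP (0.0106 to 2.54), whose intervals include 1. Counted in tags, the ratio was 0.884 for Xrn1-TAP (0.678 to 1.14), 0.465 for Dcp2-TAP (0.374 to 0.570) and 0.395 for Lsm1-TAP (0.267 to 0.564). The no-TAP value of 0.109 (0.0131 to 0.397) rested on 2 tags at 1 position, fewer than the floor of 3 tags. It therefore cannot show whether the control was lower too. Only 5 genes stand behind these values.

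Promoters next to an RNA gene were fuller than the rest. The 5 coding genes with a tRNA or snoRNA gene in the window, UBA1, KAE1, YKR041W, TFA2 and AIM29, had 2.71 times as many positions per window as the others in Xrn1-TAP (1.28 to 5.07), 3.90 times for Dcp2-TAP (2.72 to 5.44), 2.62 times for Lsm1-TAP (1.34 to 4.64) and 5.49 times for no-TAP (1.72 to 13.6). SNR42 reaches the TFA2 window only at its outermost base. TFA2 gave 3 of their 10 positions for Xrn1-TAP, 15 of 37 for Dcp2-TAP and 5 of 12 for Lsm1-TAP. For no-TAP it gave 3 of 5, and AIM29 the other 2. Divergent promoters, whose upstream neighbour runs the other way, had 0.792 times as many positions per window as tandem ones in Xrn1-TAP (0.609 to 1.03), 0.824 times for Dcp2-TAP (0.702 to 0.967), 0.792 times for Lsm1-TAP (0.626 to 1.00) and 0.857 times for no-TAP (0.502 to 1.46). Windows of divergent neighbours can overlap and then count a position for both genes. The overlapping windows of CWP2, counted as divergent, and YKL097C, counted as tandem, held 25 and 22 positions for Dcp2-TAP, largely the same ones. The intervals do not take this into account.

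Between the arms, the 103 promoters of the right arm held 0.961 times as many positions per window as the 215 of the left arm in Xrn1-TAP (0.723 to 1.27), 0.739 times for Dcp2-TAP (0.615 to 0.885), 0.724 times for Lsm1-TAP (0.551 to 0.942) and 0.854 times for no-TAP (0.464 to 1.51). The difference exceeded counting error in Dcp2-TAP and Lsm1-TAP; whether the arms differ more in these libraries than in the control was not tested. CWP2, YKL097C, FBA1 and GPM1 all lie on the left arm, with 25, 22, 20 and 14 of its 466 positions for Dcp2-TAP. The windows of CWP2 and YKL097C overlap and count largely the same positions for both genes, which the intervals do not take into account.

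The libraries rarely shared an exact position on the chromosome. Xrn1-TAP and Dcp2-TAP had 18 positions in common, which is 2.26% of those in Xrn1-TAP and 0.955% of those in Dcp2-TAP, Dcp2-TAP and Lsm1-TAP had 21 (1.11% and 2.02%), and Xrn1-TAP and Lsm1-TAP 9 (1.13% and 0.867%). With no-TAP, Xrn1-TAP shared 2, Dcp2-TAP 4 and Lsm1-TAP 2, and no position was in all 4. How many positions libraries of these sizes would share under an even spread was not computed, so the counts do not say whether sharing was above or below that. By promoter the counts of Dcp2-TAP and Lsm1-TAP had a Pearson r of 0.621 and a Spearman rho of 0.346 across the 318 genes. For Dcp2-TAP and no-TAP the values were 0.454 and 0.255. These are descriptions across genes, which are not independent, share overlapping windows and lie at counts of mostly 0 to 2.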

How the data were processed

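The deposited files hold raw counts of tags per genome index for either strand and for both together, per the file headers. Aligner, genome build, filters and treatment of duplicates: not given in the sources used here. Per the labels' protocols, sonication in 30 cycles sheared the chromatin to 250 to 300 bp (median). The series text speaks of 2 replicates, but each group has 1 file here and was treated as 1 library. Genes came from RefSeq's R64 table, with names, start codons and strand (read from the locus tag); its coordinates are not printed.

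Members, lists and the rule for named genes were chosen with earlier results of these data known. The design had foreseen an offset of 360 bp on all of chromosome XI; because the check on start codons and tRNA genes found it only right of SHE2, the foreseen alternative of no offset on the left was used, and the uniform offset became an alternative. The break lies at the maximum of the cumulative difference between both offsets in positions within 200 bp upstream. Windows are 300 bp. Intervals are exact Poisson for folds, Clopper-Pearson for shares and exact conditional binomial for ratios, all at 95%, and cover counting error only. A floor of 3 tags is 19.0 CPM (tags scaled to library totals) for Xrn1-TAP, 8.39 for Dcp2-TAP and 14.2 for Lsm1-TAP, against 89.8 for no-TAP. The distances beyond 300 bp, the gaps and the coding regions were measured after the values were seen.

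Of coding genes of the chromosome, the rule named the 8 with most positions in each TAP library, the 4 with most in no-TAP, the 8 whose lowest rank among the TAP libraries was best, the 2 fullest of each of 14 lists, and up to 3 above and 3 below no-TAP per TAP library, in all 43; other genes are named to complete a list or a count. The calls and the ratio intervals were tested on simulated independent counts, and the search for the break on another chromosome with an artificial shift. Tags at one position are not independent, so the simulation does not check the tag ratios in that respect. Promoter sequences and motifs were not analysed here. Tools were Python 3.11.15, numpy 2.4.6, pandas 2.3.3, scipy 1.17.1 and matplotlib 3.10.9.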

Additional observations from a re-analysis of the deposited data

How the results depend on the processing

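With the uniform offset of 360 bp on all of chromosome XI, the upstream fold of Dcp2-TAP was 2.03, the ratio of upstream to coding density 3.83 for Dcp2-TAP and 2.71 for Lsm1-TAP, and the tRNA fold of no-TAP 1.91. The same offset emptied windows of genes left of the break: for Dcp2-TAP, URA1 had 0 positions, TRP3 1 and RPS27A 0, which is below an even spread. RPL17A stood at 0.211 times no-TAP for Xrn1-TAP at the floor (interval up to 0.511) and at 0.560 times for Dcp2-TAP (0.164 to 2.97, which includes 1). Of the promoters called with the split offset, 7 of 8 for Xrn1-TAP, 21 of 25 for Dcp2-TAP, 8 of 10 for Lsm1-TAP and 1 of 1 for no-TAP were also called with the uniform one. Left of the break, where the 2 offsets differ, this held for 0 of 1, 2 of 6 and 0 of 2 calls of Xrn1-TAP, Dcp2-TAP and then Lsm1-TAP.

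With no offset anywhere, the upstream fold was 1.12 for Xrn1-TAP, 1.29 for Dcp2-TAP and 1.15 for Lsm1-TAP, against 1.29 for no-TAP, and the ratio of upstream to coding density 1.35, 1.65, 1.42 and 1.21 in the same order. The tRNA fold was 1.97 for Xrn1-TAP, 2.41 for Dcp2-TAP and 3.27 for Lsm1-TAP, the snoRNA fold of Dcp2-TAP 7.80, and 23 promoters were above no-TAP for Xrn1-TAP. Called were 3 promoters for Xrn1-TAP, 12 for Dcp2-TAP and 3 for Lsm1-TAP, against 0 for no-TAP. Windows right of the break then went below an even spread: YKL097C, NUP120, UTH1 and VMA5 had 0 positions for Xrn1-TAP; CWP2, YKL097C, TFA2, NUP120, RPL40B, MTD1 and NUP100 had 0 for Dcp2-TAP, and FBA1, UTH1 and UGP1 had 1; TFA2 and YKL063C had 0 for Lsm1-TAP, and TFA2 had 0 for no-TAP. Ratios to no-TAP with 1 library at the floor changed side at GPT2 (0.0906 for Xrn1-TAP, up to 0.147) and TEF4 (1.49 for Dcp2-TAP, from 1.17, and 1.95 for Lsm1-TAP, from 1.51). The ratio of MRS4 changed side too (1.90 for Lsm1-TAP, 0.831 to 5.34, which includes 1).

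An offset 30 bp smaller on the right put RPL14A, with the control at the floor, at 1.18 times no-TAP for Dcp2-TAP, with an interval from 0.916 that includes 1. For Lsm1-TAP it stood at 1.58 times, from 1.21. An offset 30 bp larger put MRS4 at 2.47 times no-TAP for Xrn1-TAP at the same floor, from 1.90. It left the snoRNA genes with 0 positions for no-TAP.

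Counted in tags, the tRNA fold was 3.12 for Xrn1-TAP, 2.88 for Dcp2-TAP and 2.74 for Lsm1-TAP, the upstream fold of Dcp2-TAP 2.09, and the ratio of upstream to coding density 3.57 for Dcp2-TAP and 2.69 for Lsm1-TAP; 97 promoters were called for Xrn1-TAP, 118 for Dcp2-TAP and 99 for Lsm1-TAP, against 33 for no-TAP. Counted in positions, 0 promoters were above and 0 below no-TAP for Xrn1-TAP and for Dcp2-TAP, and 0 above and 1 below for Lsm1-TAP. Dropping positions with a single tag left 4 called for Xrn1-TAP.

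With windows of 150 bp, the upstream fold of Dcp2-TAP was 2.60, and 14 promoters were called for Dcp2-TAP and 5 for Lsm1-TAP, against 0 for no-TAP. Above and below no-TAP were 17 and 11 for Xrn1-TAP, 10 and 11 for Dcp2-TAP, and 8 and 12 for Lsm1-TAP. UTH1 then had 0 positions for Xrn1-TAP and for Dcp2-TAP, TFA2 0 for Lsm1-TAP and for no-TAP, and YKL063C 0 for Lsm1-TAP. RPL14A, with the control at the floor, stood at 1.18 times no-TAP for Dcp2-TAP, from 0.916, and 1.48 times for Lsm1-TAP, from 1.12. With 500 bp, the upstream fold was 1.92 for Dcp2-TAP and 1.68 for Lsm1-TAP, 0 promoters were called for no-TAP, and 33 were above no-TAP for Dcp2-TAP and 30 for Lsm1-TAP. Windows ended at the neighbouring gene left 6 called for Lsm1-TAP, with CWP2 at 0 positions for Xrn1-TAP and Lsm1-TAP. Median-ratio scaling put 70, 60 and 75 promoters above no-TAP for Xrn1-TAP, Dcp2-TAP and then Lsm1-TAP. Without flanks, the tRNA fold was 12.8 for Xrn1-TAP, 9.06 for Dcp2-TAP and 9.02 for Lsm1-TAP, and the snoRNA fold 1.14 for Dcp2-TAP and 0 for Lsm1-TAP, against 0 for no-TAP.

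Other offsets and window lengths move the sequence counted by construction; beyond that, the cause of these changes was not tested. Library totals without the ribosomal DNA, an even spread over chromosome XI alone and a filter of 10 tags changed none of the counts by over 1.5 times. Alternatives with both libraries at 0 give no ratio. The motif comparison was not run. No paired analysis was possible because each group has 1 library. The no-TAP library, with 201 positions on the chromosome, limits every ratio to it.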
